A study of Mus musculus with 26 samples.

Results

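The 7 creatine cycling genes Gatm, Gamt, Slc6a8, Ckb, Ckmt1, Ckmt2 and Alpl were followed in brown adipose tissue (BAT) of mice kept warm or exposed to cold. They were chosen by name for their roles in making, importing, phosphorylating or dephosphorylating creatine, with earlier results of these data known. They were found by symbol among the 50686 genes of the count table. Of the 7, 6 had enough counts to be tested among the 17286 genes tested, and Ckmt1 did not.

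The study asked what adipocytes lose without Afadin, a scaffold protein at cell junctions encoded by Afdn. RNA was sequenced from BAT that the labels call supraclavicular, taken from male C57BL/6J mice that were 12 to 16 weeks old and housed 1 to a cage near thermoneutrality for 2 weeks. Group WT30 held 7 control littermates and group KO30 held 7 fat-specific Afadin knockout mice left at the warm temperature, which the labels give as 30 °C and the study's methods as 29 °C. Groups WT5 and KO5 held 5 control and 7 knockout littermates moved to 5 °C for 6 h before tissue was taken. The knockout mice carried loxP-flanked alleles of the Afadin gene and a Cre driven by the Adiponectin promoter, which is active in adipocytes of white as well as brown depots, so that Afadin was targeted outside BAT too. The sources used here do not say which alleles the control littermates carried. All 26 mice thus shared strain, sex, the 2 warm weeks and the tissue, and the labels name no drug for any group.

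Afdn itself did not separate the genotypes in the warm. Its level in CPM (read counts scaled to a common library size with edgeR's TMM factors) was 151 to 214 in WT30 and 154 to 231 in KO30. The log2 fold change was -0.01 with an SE of 0.08, and the quasi-likelihood test of edgeR gave an adjusted p of 0.992. After cold Afdn was at 67.9 to 79.2 CPM in WT5 and 53.3 to 65.3 CPM in KO5, with a log2 fold change of -0.33 that was not called (SE 0.09, edgeR adjusted p = 0.116). In both genotypes its RNA was thus lower in the cold mice than in the warm mice. Counts per gene do not show from which exons or cells of the tissue the reads came. The groups are called control mice and mice labelled KO throughout. In bulk tissue fewer cells of a type and less RNA per cell cannot be told apart.

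Libraries held 12705969 to 25732258 counts, of which mitochondrially encoded genes took 14.3% to 40.5%. The median share was 37.2% in WT30, 28.3% in KO30, 27.6% in WT5 and 28.0% in KO5. All 10 brown adipocyte markers were detected. Among them Ucp1, the uncoupling protein of brown fat mitochondria, had 652 to 1292 CPM in WT30 and 15340 to 16658 CPM in WT5. RNA of skeletal muscle varied far more from mouse to mouse than between groups. The summed level of 20 muscle genes, none of them a creatine gene, ran from 51.3 to 280 CPM in 10 mice and from 1426 to 19398 CPM in the other 16, with no mouse between. The 10 mice with little muscle RNA were 4 of WT30, 2 of KO30, 1 of WT5 and 3 of KO5. The mean log2 CPM of these genes was 1.15 higher in WT5 than in WT30 (exact two-sided permutation test, p = 0.497) and 0.01 higher in KO5 than in KO30 (exact p = 0.995). The difference between labels was 0.52 for KO30 against WT30 (exact p = 0.712) and -0.62 for KO5 against WT5 (exact p = 0.789). As the mice fell in separate sets, this mean of logs does not show that the sums were balanced. The median and highest sums were 242 and 14979 CPM in WT30 and 2273 and 4220 CPM in KO30. They were 2484 and 15380 CPM in WT5 and 2224 and 19398 CPM in KO5.

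Creatine is made from arginine, glycine and a methyl group in 2 enzyme steps, enters cells through a dedicated transporter, and is charged to phosphocreatine by creatine kinases. In muscle and brain this pair of molecules buffers ATP. In brown and beige fat, mitochondria can charge creatine and a phosphatase can discharge it again, a cycle that spends ATP as heat without Ucp1. Ckb and Alpl have been named as the kinase and the phosphatase of that cycle, while Ckmt1 and Ckmt2 encode the mitochondrial kinases of brain-like and of striated muscle tissue.

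Levels between genes were compared in CPM per kb of exon, since a longer gene collects more reads. In WT30 the order was Ckb at 16.1 ± 5.54 (SD, n = 7), Slc6a8 at 10.2 ± 1.38, Gamt at 4.69 ± 0.59, Alpl at 2.32 ± 0.30 and Gatm at 1.09 ± 0.19 CPM per kb. Ckmt2 stood at 4.94 ± 8.05 CPM per kb, an SD larger than its mean, so that it did not differ beyond its spread from Slc6a8, Gamt, Alpl or Gatm. Ckb exceeded Slc6a8 in 25 of 26 mice, and the exception was a WT30 mouse. Gamt exceeded Alpl in all 14 mice kept warm and in 0 of 12 mice exposed to cold. In WT5 Alpl reached 3.32 ± 0.39 CPM per kb against 2.40 ± 0.21 for Gamt. Gatm was below Alpl in all 26 mice.

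**Figure D1:**
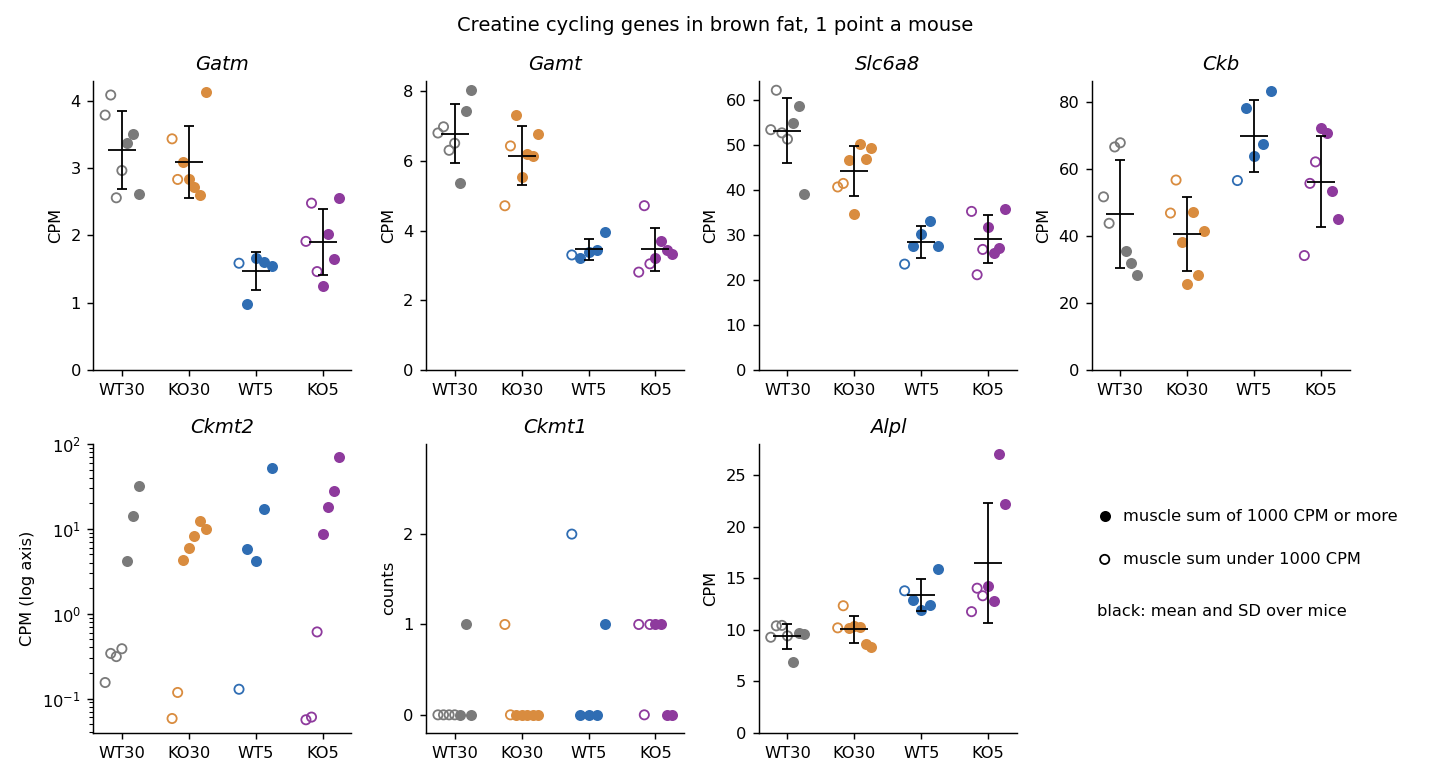
Level of each creatine cycling gene in each of the 26 mice, in CPM for 6 genes (Ckmt2 on a log axis) and in raw counts for Ckmt1. Filled points are the 16 mice with a muscle gene sum of 1000 CPM or more, open points the 10 below it, and black marks give the mean and SD where drawn. Gatm, Gamt and Slc6a8 lie lower and Alpl higher in the cold groups, while Ckmt2 spreads from 0.0562 to 70.5 CPM with the filled points on top in every group.

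The sequence before the transcription start was taken for the members that changed with cold in both genotypes. It is shown because Gatm and Gamt fell while Ckb and Alpl rose. RefSeq on GRCm38.p6 gave start sites for 6 of the 7 genes (not for Slc6a8), and the 250 bases before the start are printed 5′ to 3′ on the gene's own strand. Capitals mark matches, on either strand, to TGACG (the cAMP response half-site), AGGTCA (the nuclear receptor half-site), TATAAA (the TATA box) or the MEF2-type site, which is CTA and TAG with any 4 bases between them. These motifs were present in 17.8%, 14.0%, 12.4% and 3.20% of the 32851 windows of that length. The full cAMP site TGACGTCA, the site AAGGTCA and the E-box CACGTG were also searched, at 1.55%, 4.08% and 6.02% of all windows, and were found in none of the 5 windows printed here.
Ckb, chr12:111672339-111672588, minus strand: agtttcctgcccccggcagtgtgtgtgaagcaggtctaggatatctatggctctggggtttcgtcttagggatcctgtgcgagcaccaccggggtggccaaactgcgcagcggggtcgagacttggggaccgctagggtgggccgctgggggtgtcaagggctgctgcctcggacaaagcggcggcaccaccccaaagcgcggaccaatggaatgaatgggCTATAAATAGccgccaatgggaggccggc
Gatm, chr2:122611278-122611527, minus strand: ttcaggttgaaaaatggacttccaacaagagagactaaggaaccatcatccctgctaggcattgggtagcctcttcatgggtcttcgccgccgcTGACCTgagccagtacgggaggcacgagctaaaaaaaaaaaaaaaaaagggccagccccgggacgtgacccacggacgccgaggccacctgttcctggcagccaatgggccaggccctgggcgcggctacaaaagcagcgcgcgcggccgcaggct
Gamt, chr10:80261013-80261262, minus strand: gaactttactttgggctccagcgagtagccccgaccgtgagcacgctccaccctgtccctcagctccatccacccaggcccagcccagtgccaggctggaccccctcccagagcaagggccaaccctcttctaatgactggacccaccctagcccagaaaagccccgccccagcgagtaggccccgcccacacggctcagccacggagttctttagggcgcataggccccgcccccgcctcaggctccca
Alpl, first start, chr4:137796385-137796634, minus strand: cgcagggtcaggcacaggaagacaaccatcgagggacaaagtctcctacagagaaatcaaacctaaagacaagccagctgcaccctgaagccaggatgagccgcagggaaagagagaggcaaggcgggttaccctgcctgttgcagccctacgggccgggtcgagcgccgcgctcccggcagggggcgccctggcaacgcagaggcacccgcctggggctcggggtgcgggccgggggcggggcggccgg
Alpl, second start, chr4:137766476-137766725, minus strand: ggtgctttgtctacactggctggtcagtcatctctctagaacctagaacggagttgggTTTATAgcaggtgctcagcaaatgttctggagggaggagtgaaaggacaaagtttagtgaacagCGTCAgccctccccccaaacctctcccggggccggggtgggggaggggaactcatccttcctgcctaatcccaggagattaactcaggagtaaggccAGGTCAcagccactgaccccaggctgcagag

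The Ckb window held a TATA box beginning 28 bases before the start, inside a MEF2-type match of which it is part, so that the capitals mark 1 stretch. The Gatm window held 1 nuclear receptor half-site on the opposite strand, 156 bases before the start. The Gamt window held none of the motifs searched and was 66.8% G and C, against a median of 52.4% over all windows. At Alpl the first start lay in a window of 68.4% G and C with no match. The second start, 56.0% G and C, had a cAMP response half-site, a nuclear receptor half-site and a TATA match. The counts per gene do not tell which Alpl start was used. A match is a description of the letters only.

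Cold was first compared in control mice, which were not knockouts but also had lower Afdn RNA after cold. Of the 6 members tested, 2 rose and 3 fell at a false discovery rate of 0.05, and 4 had groups that did not overlap. The same call was made for 65.0% of all genes tested (31.6% higher, 33.4% lower), and 46.4% had groups without overlap, so that the number of members called is not a result about creatine genes. The split of the calls over all genes moved with the scaling in mice labelled KO, where TMM gave 5825 higher and 6035 lower, library size by itself 3223 and 8384, and upper-quartile factors 4694 and 7369. In mice labelled KO again 2 members rose and 3 fell, beside 68.6% of all genes (33.7% higher, 34.9% lower), and 1 member had groups without overlap, beside 40.4% of all genes. The 5 called members were the same in both genotypes and had the same direction. The median log2 fold change of the 6 was -0.19 in control mice and -0.07 in mice labelled KO, against -0.01 and -0.03 over all genes.

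Transcripts of the genes of synthesis and import were lower after cold. Gatm (ENSMUSG00000027199.14, chr2:122594467-122611303 of mm10) encodes arginine:glycine amidinotransferase, the first and committed enzyme of creatine synthesis. WT30 mice had 2.56 CPM at the lowest, 3.38 at the median and 4.08 at the highest, and the 5 WT5 mice had 0.975, 1.54, 1.59, 1.61 and 1.66 CPM. KO30 mice ran from 2.60 over a median of 2.84 to 4.13 CPM, and KO5 mice from 1.25 over 1.91 to 2.56 CPM. All cold mice lay below all warm mice of the same genotype. The log2 fold change was -1.13 in control mice (SE 0.18, 2.19-fold lower, edgeR adjusted p = 4.87e-06) and -0.70 in mice labelled KO (SE 0.16, 1.62-fold lower, edgeR adjusted p = 0.000429). Gatm had 14 to 88 counts a mouse.

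Gamt (ENSMUSG00000020150.13, chr10:80258151-80261012) encodes guanidinoacetate methyltransferase, which completes creatine with a methyl group from S-adenosylmethionine. Its level was 5.37 CPM at the lowest, 6.80 at the median and 8.03 at the highest in WT30, and 3.20, 3.30, 3.38, 3.46 and 3.97 CPM in the WT5 mice. In mice labelled KO it ran from 4.71 over 6.19 to 7.30 CPM in KO30 and from 2.81 over 3.34 to 4.72 CPM in KO5. The control groups did not overlap, and in mice labelled KO the highest cold mouse just passed the lowest warm mouse. The log2 fold change of Gamt was -0.97 in control mice (SE 0.13, edgeR adjusted p = 1.62e-07) and -0.83 in mice labelled KO (SE 0.11, edgeR adjusted p = 3.42e-07).

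Slc6a8 (ENSMUSG00000019558.14, chrX:73673150-73682502) encodes the sodium- and chloride-driven creatine transporter of the plasma membrane. WT30 mice had 39.1 CPM at the lowest, 53.3 at the median and 62.1 at the highest, against 23.5, 27.6, 27.6, 30.2 and 33.2 CPM in the WT5 mice. KO30 mice had 34.7, 46.6 and 50.1 CPM and KO5 mice 21.2, 27.2 and 35.8 CPM at the lowest, median and highest. Again the control groups were apart, and 1 or more KO5 mice reached into the KO30 range. Its log2 fold change was -0.90 in control mice (SE 0.12, 1.87-fold lower, edgeR adjusted p = 3.98e-07) and -0.60 in mice labelled KO (SE 0.11, 1.52-fold lower, edgeR adjusted p = 2.85e-05).

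Ckb (ENSMUSG00000001270.8, chr12:111669361-111672338) encodes the brain-type creatine kinase, which works in the cytosol and in fat also at mitochondria. WT30 mice had 28.4 CPM at the lowest, 43.7 at the median and 67.7 at the highest, and the WT5 mice had 56.5, 63.8, 67.5, 78.0 and 83.2 CPM. KO30 mice ran from 25.6 over 41.3 to 56.6 CPM and KO5 mice from 34.1 over 55.6 to 72.2 CPM. The warm and cold groups overlapped in both genotypes. Ckb rose by 0.59 in log2 fold change in control mice (SE 0.21, edgeR adjusted p = 0.0184) and by 0.47 in mice labelled KO (SE 0.20, edgeR adjusted p = 0.0382). These were the weakest of the member calls. Without WT5 mouse 16, the highest, the value in control mice was 0.52 with an edgeR adjusted p of 0.0533. In mice labelled KO the call was lost without KO30 mouse 9, 12, 13 or 14 or without KO5 mouse 22, 23, 26 or 28, with log2 fold changes of 0.35 to 0.46 and edgeR adjusted p of 0.0532 to 0.118. Scaled by library size only, Ckb was at 0.49 (edgeR adjusted p = 0.0501) and 0.18 (edgeR adjusted p = 0.429), while the median of all genes moved to -0.14 and -0.34.

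Alpl (ENSMUSG00000028766.10, chr4:137741733-137796384) encodes tissue-nonspecific alkaline phosphatase, which removes phosphate from many small molecules and, in thermogenic fat, from phosphocreatine. WT30 mice had 6.87 CPM at the lowest, 9.54 at the median and 10.4 at the highest, and the WT5 mice had 11.9, 12.4, 12.9, 13.8 and 15.9 CPM. KO30 mice had 8.36, 10.2 and 12.3 CPM and KO5 mice 11.8, 14.0 and 27.0 CPM at the lowest, median and highest. All WT5 mice lay above all WT30 mice, while 1 KO30 mouse lay above the lowest KO5 mouse. The rise was 0.51 in log2 fold change in control mice (SE 0.16, 1.43-fold, edgeR adjusted p = 0.00747) and 0.71 in mice labelled KO (SE 0.15, 1.64-fold, edgeR adjusted p = 0.000143). The highest KO5 values, 27.0 CPM in mouse 24 and 22.2 CPM in mouse 25, belonged to the mice with the most muscle RNA of that group.

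The mitochondrial kinases gave no called change. Ckmt1 (ENSMUSG00000000308.14, chr2:121357714-121363737), the ubiquitous mitochondrial creatine kinase, had 0 counts in 18 mice, 1 count in 7 mice and 2 counts in 1 mouse. A count of 0 allows up to 3 counts, or 0.129 to 0.232 CPM depending on the library, so that no fold change is given. Ckmt2 (ENSMUSG00000021622.3, chr13:91853387-91876885), the sarcomeric mitochondrial creatine kinase of heart and skeletal muscle, had 0.155 CPM at the lowest, 0.387 at the median and 31.9 at the highest in WT30, and 0.129, 4.16, 5.78, 17.1 and 52.5 CPM in the WT5 mice. It ran from 0.0582 over 5.99 to 12.3 CPM in KO30 and from 0.0562 over 8.72 to 70.5 CPM in KO5. Every group spanned a wide range and all groups overlapped. The log2 fold change by cold was 1.07 in control mice (SE 1.18, 95% interval -1.23 to 3.37, edgeR adjusted p = 0.437) and 1.61 in mice labelled KO (SE 1.11, -0.57 to 3.78, edgeR adjusted p = 0.202). Another gene lies inside Ckmt2 on the opposite strand, and Ckmt1 also overlaps a gene on its opposite strand. The strand setting of the counting is not given in the sources used here. The floor given for Ckmt1 covers sampling only, not reads lost to such an overlap.

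**Figure D2:**
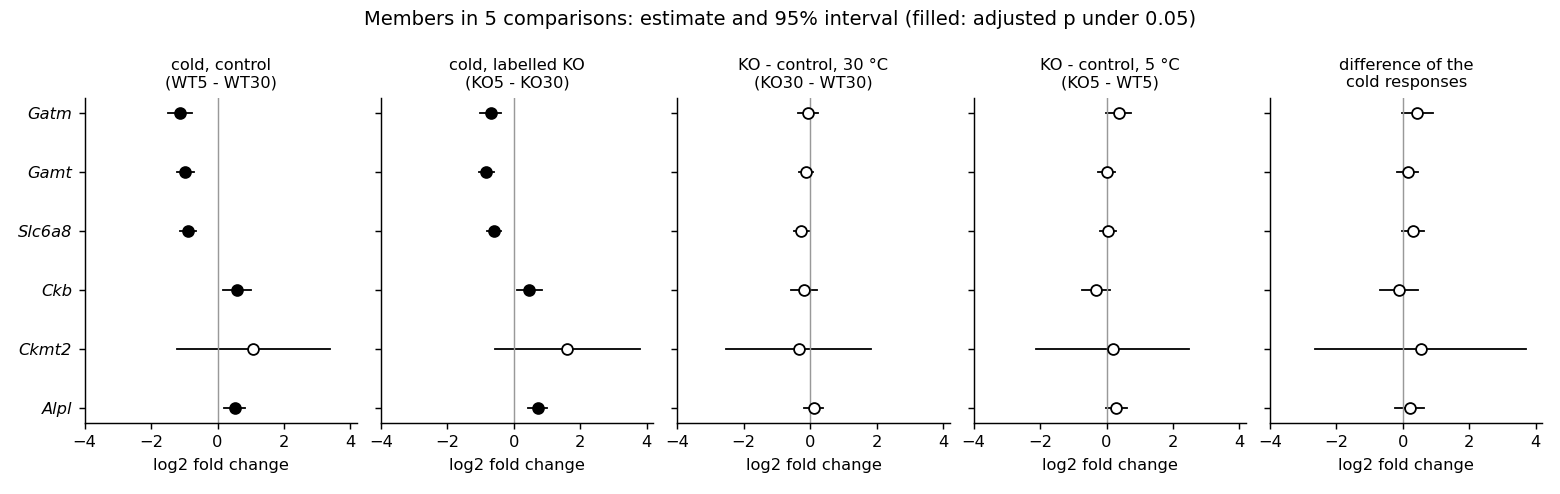
Log2 fold change of the 6 tested members in the 2 cold comparisons, the 2 comparisons of mice labelled KO with control mice, and the difference of the cold responses. Points are edgeR estimates and lines 95% intervals, filled where the adjusted p was under 0.05. Gatm, Gamt and Slc6a8 lie left of 0 and Ckb and Alpl right of it in both cold panels, and no point is filled in the other 3.

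Because Ckmt2 belongs to striated muscle, each member was read against the muscle RNA of the same mouse. Ckmt2 had 1 to 10 counts in the 10 mice with little muscle RNA and 75 to 1184 counts in the other 16. Within each group the order was the same, with 0.155 to 0.387 CPM against 4.15 to 31.9 CPM in WT30 and 0.0562 to 0.610 against 8.72 to 70.5 CPM in KO5. Per 100 CPM of the summed muscle genes it stood at 0.0684 to 0.251 CPM in the former mice and at 0.167 to 0.392 CPM in the latter, while the sum itself ran over a far wider range. Per 100 counts of Ckm, the muscle creatine kinase of the cytosol, the 16 mice had 5.12 to 11.1 counts of Ckmt2. The medians were 8.14 in WT30, 6.98 in KO30, 9.43 in WT5 and 8.55 in KO5. In the 10 mice with little muscle RNA this ratio ran from 6.49 to 150, on 1 to 10 counts of Ckmt2. It could not be formed in KO5 mouse 27, which had 0 counts of Ckm. Because the mice fell in separate clusters of muscle RNA with fewer than 6 mice of a group in each, no correlation of a member with the muscle score within groups is given.

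With the muscle score of each mouse as a covariate, the log2 fold change of Ckmt2 by cold was 0.26 in control mice (SE 0.17, edgeR adjusted p = 0.196) and 0.25 in mice labelled KO (SE 0.16, edgeR adjusted p = 0.160), with SEs far smaller than without it. Among only the mice with more muscle RNA it was 0.22 in control mice (edgeR adjusted p = 0.833) and 1.91 in mice labelled KO (SE 0.70, edgeR adjusted p = 0.0257). Among those same mice labelled KO, Ckm had a log2 fold change of 1.68 by cold (SE 0.69, edgeR adjusted p = 0.0424). In all mice Ckm was not called, at 0.45 in control mice (edgeR adjusted p = 0.798) and 1.39 in mice labelled KO (edgeR adjusted p = 0.365). Of the 20 muscle genes 0 were called by edgeR in either cold comparison, with log2 fold changes of 0.20 to 1.63 and of 0.41 to 1.68.

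**Figure D3:**
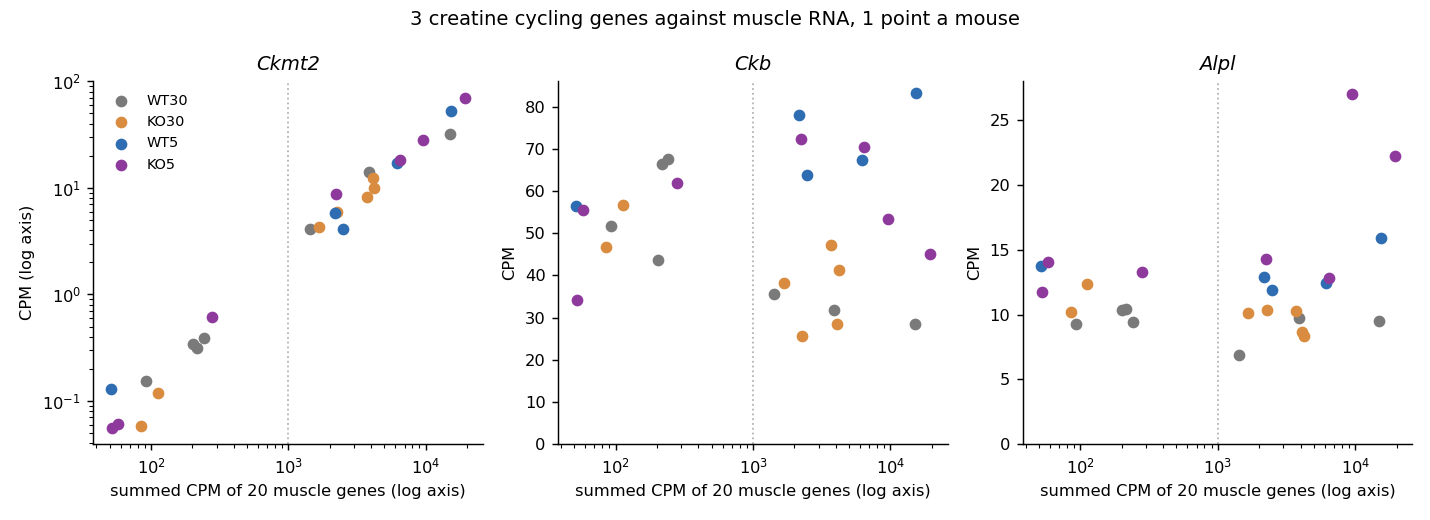
Level of Ckmt2 (log axis), Ckb and Alpl against the summed CPM of 20 skeletal muscle genes (log axis), 1 point a mouse and 1 colour a group, with a dotted line at 1000 CPM. Ckmt2 climbs with the muscle sum whatever the group, the warm Ckb values are mostly lower right of the line than left of it, and the 2 highest Alpl values are KO5 mice with muscle sums of 9534 and 19398 CPM.

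Ckb behaved otherwise. In WT30 the 4 mice with little muscle RNA had 43.7, 51.6, 66.5 and 67.7 CPM and the 3 with more had 28.4, 31.8 and 35.5 CPM. After cold the 1 WT5 mouse with little muscle RNA had 56.5 CPM, below the 4 with more, at 63.8 to 83.2 CPM. KO30 mice with little muscle RNA had 46.8 and 56.6 CPM against 25.6 to 47.2 CPM in the others, and KO5 mice had 34.1 to 62.0 CPM against 45.1 to 72.2 CPM. So the WT30 sets did not overlap, with Ckb lower in the mice with more muscle RNA, while the KO30 sets overlapped slightly and the KO5 sets interleaved. In WT5 the comparison rests on 1 mouse.

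The cold comparison of Ckb was also made within each set of mice. Among only the 10 mice with little muscle RNA its log2 fold change was -0.01 in control mice (1 cold mouse, so that this is a value with no test) and -0.04 in mice labelled KO (SE 0.24, edgeR adjusted p = 0.899). Among only the 16 others it was 1.17 (SE 0.20, edgeR adjusted p = 0.000103) and 0.72 (SE 0.17, edgeR adjusted p = 0.00170). With the muscle score as a covariate it stayed called, at 0.65 (edgeR adjusted p = 0.0102) and 0.49 (edgeR adjusted p = 0.0280). The difference of the cold response between the sets of mice, as a term of the edgeR fit, was 0.99 in log2 fold change (SE 0.24). Its p was 0.000313, and 0.374 adjusted over the 17286 genes, of which edgeR called 0 for this term. This split and its test were chosen after the values were seen.

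The same sets were read for the other members, where the set with little muscle RNA again held 1 cold control mouse, so that its control values are given with no test. Gamt had log2 fold changes by cold of -0.67 to -1.01 over both sets and both genotypes and Slc6a8 of -0.57 to -1.21, called in the 3 comparisons with more than 1 mouse in each arm. Gatm was -0.69 among the mice labelled KO with little muscle RNA, as in all mice, with an edgeR adjusted p of 0.0663. Alpl in that same set was 0.20 (SE 0.14, edgeR adjusted p = 0.246) against 0.97 (SE 0.18, edgeR adjusted p = 0.000243) in the mice labelled KO with more. In control mice it was 0.49 with little muscle RNA and 0.59 with more (edgeR adjusted p = 0.0292 for the latter). The difference between the sets over both genotypes was 0.55 for Alpl (SE 0.22, edgeR adjusted p = 0.554).

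**Figure D4:**
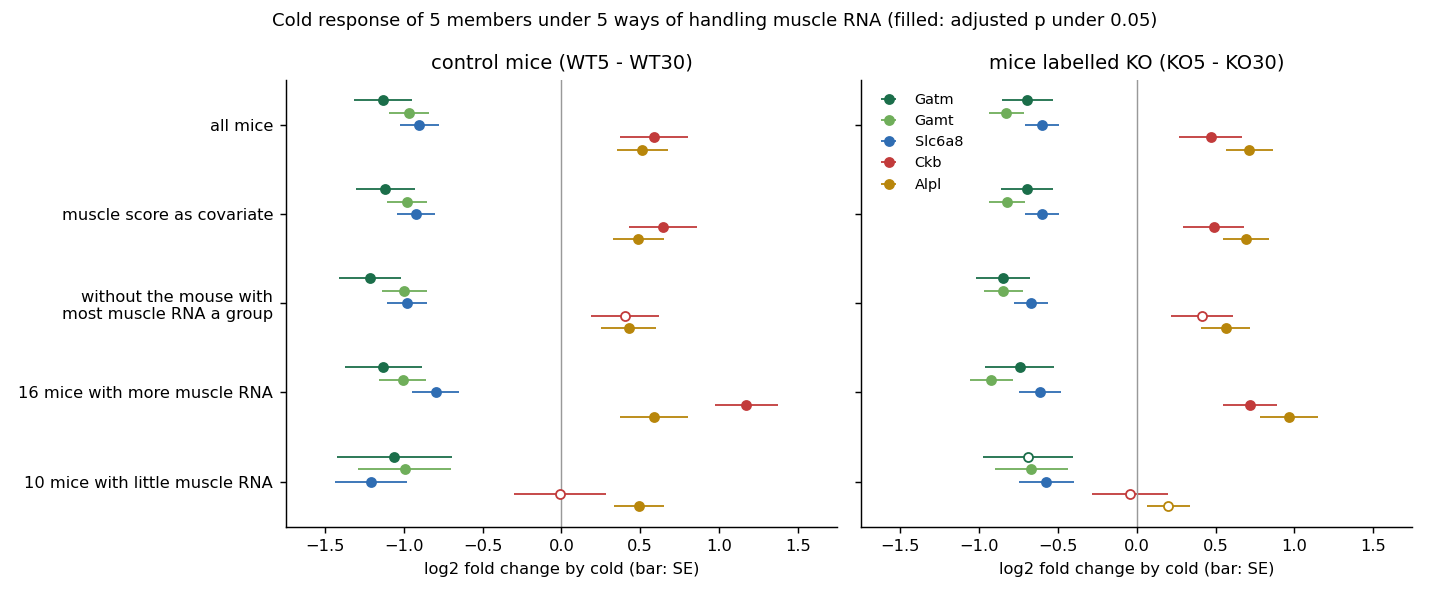
Cold log2 fold change with its SE for 5 members in control mice (left) and mice labelled KO (right), in all mice and under 4 other ways of handling muscle RNA, filled where the adjusted p was under 0.05. Gatm, Gamt and Slc6a8 stay left of 0 in each row, whereas Ckb moves from 1.17 and 0.72 in the 16 mice with more muscle RNA to -0.01 (1 cold mouse) and -0.04 in the 10 with little, a difference that was not called (edgeR adjusted p = 0.374). Points of control mice with little muscle RNA rest on 1 cold mouse, so that their filling is no test.

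Markers of other cell types were read beside the 65.0% and 68.6% of all genes called by cold in control mice and in mice labelled KO. Of 8 neutrophil markers 7 were tested and 5 rose in control mice and 6 in mice labelled KO, the sum going from 3.35 to 11.0 CPM in WT30 and 2.56 to 5.63 CPM in KO30 to 8.11 to 16.3 CPM in WT5 and 7.17 to 76.1 CPM in KO5. Ly6g was too low to test. Neutrophils are known for alkaline phosphatase, and the part of these cells in the rise of Alpl was not tested. The KO5 mouse with the highest neutrophil sum, 76.1 CPM, had the lowest Alpl of its group, 11.8 CPM, and the 2 mice with the highest Alpl had neutrophil sums of 8.98 and 14.1 CPM. These mice were picked after their values were seen. Between the groups, Alpl and most of the neutrophil markers rose together by cold in both genotypes. Of 5 smooth muscle markers, which include Des of skeletal muscle too, 4 rose and 1 fell in each genotype, the sum moving from 85.7 to 165 CPM in WT30 and 87.5 to 111 CPM in KO30 to 130 to 223 CPM in WT5 and 85.3 to 255 CPM in KO5. Smooth muscle is known for Ckb, and the part of these cells in its rise was not tested. Macrophage sums overlapped between all groups, at 192 to 322 CPM, with 2 of 7 markers higher and 3 lower in control mice and 4 higher and 2 lower in mice labelled KO. Endothelial sums were 508 to 731 CPM in the warm and 660 to 870 CPM in the cold, with 3 markers higher and 4 lower in control mice and 3 in each direction in mice labelled KO. Fibroblast sums were 972 to 2791 CPM, with 1 of 6 markers called in each genotype, lower in control mice and higher in mice labelled KO. Schwann and neural sums were 79.0 to 122 CPM in the warm and 51.9 to 71.6 CPM in the cold, with Th too low to test, 2 of 6 markers lower in control mice and 3 in mice labelled KO. Lymphocyte sums were 3.26 to 8.03 CPM in the warm, 18.1 CPM in KO5 mouse 23 and 0.949 to 2.02 CPM in the other 11 cold mice, below every warm mouse, with 3 of 6 markers lower in control mice and 1 in mice labelled KO. The part of these cells in the members' changes was not tested.

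The label made no called difference to any member. In the warm 1 of 6 members had an unadjusted p under 0.05 in edgeR, beside 1322 of all 17286 genes tested. After adjustment 0 of 6 members passed the threshold, beside 0.081% of all genes called, or 14 genes. Without WT30 mouse 7, 93 genes were called. This mouse had the most muscle RNA of WT30. It also had the lowest mitochondrial share (14.3%), the highest TMM factor (1.29) and the highest fibroblast sum (2791 CPM) of all mice. The part of each in the number of calls was not tested. The member with an unadjusted p under 0.05 was Slc6a8, which had 53.1 ± 7.21 CPM in WT30 and 44.2 ± 5.56 CPM in KO30 (SD, n = 7 each), a log2 fold change of -0.26 (95% interval -0.48 to -0.05, edgeR adjusted p = 0.563). For the others the intervals were -0.38 to 0.23 for Gatm, -0.35 to 0.07 for Gamt, -0.58 to 0.19 for Ckb and -0.20 to 0.39 for Alpl. Ckmt2 had the widest, -2.54 to 1.83. In the cold again 0 of 6 members passed, beside 0.139% of all genes called. An unadjusted p under 0.05 in edgeR was found for 0 members, beside 2323 of the 17286 genes. The largest estimates were 0.36 for Gatm (95% interval -0.00 to 0.72, edgeR adjusted p = 0.401), -0.31 for Ckb (-0.73 to 0.11, edgeR adjusted p = 0.544) and 0.30 for Alpl (-0.02 to 0.62, edgeR adjusted p = 0.429). Gamt and Slc6a8 stood at 0.00 (-0.25 to 0.25) and 0.04 (-0.20 to 0.28). Ckmt2 stood at 0.18 (-2.11 to 2.48).

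The difference of the cold responses between genotypes was tested as an interaction. It was called for 0 of 6 members, beside 1.16% of all genes. Here 0 members had an unadjusted p under 0.05 in edgeR, beside 2804 of the 17286 genes. The fall of Gatm was smaller in mice labelled KO by 0.44 in log2 fold change (95% interval -0.04 to 0.91, edgeR adjusted p = 0.379). For Slc6a8 the difference was 0.30 (-0.02 to 0.62, edgeR adjusted p = 0.371), for Gamt 0.14 (-0.19 to 0.47), for Alpl 0.20 (-0.24 to 0.63), for Ckb -0.12 (-0.69 to 0.46) and for Ckmt2 0.54 (-2.63 to 3.71). These comparisons share mice with those above.

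Around the cycle, 5 lists of neighbouring genes, also chosen with earlier results of these data known, were read in the same fit. Of all genes, 31.6% were called higher and 33.4% lower in control mice, and 33.7% and 34.9% in mice labelled KO. The first list had 11 tested genes. They carry phosphate, adenine nucleotides or creatine, discharge phosphorylated substrates or, as Ckm does, charge creatine. Of these, 6 rose and 1 fell in control mice and 8 rose and 0 fell in mice labelled KO. The median log2 fold change was 0.45 and 0.63. Ckm, whose level varied with muscle RNA, was not called in either genotype. Phospho1, a phosphatase of phosphocholine and phosphoethanolamine, went from 6.62 ± 1.00 CPM in WT30 to 37.0 ± 4.59 CPM in WT5 (SD), a log2 fold change of 2.48 (SE 0.15, edgeR adjusted p = 6.72e-14) and 2.70 in mice labelled KO. Slc20a1, a phosphate importer of the plasma membrane, had 1.51 and 1.71. Slc25a3, the phosphate carrier of mitochondria, had 0.65 and 0.83. All 3 were called in both genotypes.

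Of 15 tested genes that supply or use arginine, glycine or methyl groups, 7 rose and 3 fell in control mice and 8 rose and 2 fell in mice labelled KO (median 0.47 and 0.55). The largest rise was that of Nnmt, which spends methyl groups of S-adenosylmethionine on nicotinamide, from 11.4 ± 6.89 CPM in WT30 to 151 ± 17.3 CPM in WT5, with log2 fold changes of 3.71 (SE 0.27, edgeR adjusted p = 4.38e-12) and 3.93. Slc7a1, an importer of arginine and lysine, had 3.23 and 3.11, and Asl, the enzyme that releases arginine from argininosuccinate, 1.41 and 1.80. In the same list Slc7a2, another importer of arginine and lysine, fell with log2 fold changes of -1.29 and -1.08 (edgeR adjusted p = 9.79e-05 and 0.000202), and Ass1, the enzyme before Asl, was not called at -0.17 in each genotype (edgeR adjusted p = 0.502 and 0.447). Both were chosen after their values were seen.

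Adenylate kinases pass phosphate between adenine nucleotides. Of 6 tested, 1 rose and 3 fell in control mice and 1 rose and 2 fell in mice labelled KO (median -0.56 and -0.21). Ak6, a nuclear member, had log2 fold changes of 0.98 and 1.08 and Ak3 of the mitochondrial matrix -0.73 and -0.51, all called. Ak4, also mitochondrial, was called in control mice at -1.05 (edgeR adjusted p = 0.00477) and not in mice labelled KO at -0.18 (edgeR adjusted p = 0.568), and the difference of 0.87 was not called (edgeR adjusted p = 0.297). Without KO5 mouse 27 the value in mice labelled KO was -0.57 (edgeR adjusted p = 0.0249).

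Calcium cycling across the endoplasmic reticulum is another ATP-spending cycle described in fat. Of 9 tested genes 2 rose and 3 fell in each genotype, and the medians were -0.06 and -0.13. Atp2a2, the calcium pump SERCA2, went from 217 ± 28.0 CPM in WT30 to 856 ± 29.6 CPM in WT5, a log2 fold change of 1.98 (SE 0.08, edgeR adjusted p = 1.20e-16) and 2.00 in mice labelled KO. The release channel Ryr2 went from 0.738 ± 0.22 CPM in WT30 to 2.13 ± 1.21 CPM in WT5 and rose in both genotypes. It had few counts, 7 to 24 a mouse in WT30 and 19 to 70 in WT5. Over 12 alternatives its log2 fold change was 0.90 to 1.60 in control mice and 1.23 to 1.66 in mice labelled KO. In the latter 1 alternative lost the call. Itpr2, an inositol trisphosphate receptor, had log2 fold changes of -1.64 and -1.57.

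Of 4 tested genes around alkaline phosphatase, 1 rose and 2 fell in each genotype (median -0.37 and -0.09). Enpp1, which makes pyrophosphate outside cells, a substrate of alkaline phosphatase, had 0.65 and 0.93, while Ank, which exports pyrophosphate or its source from cells, had -2.20 and -1.70. Both were called in both genotypes. None of the genes in the 5 lists was called between mice labelled KO and control mice at either temperature, or for the difference of the cold responses.

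**Figure D5:**
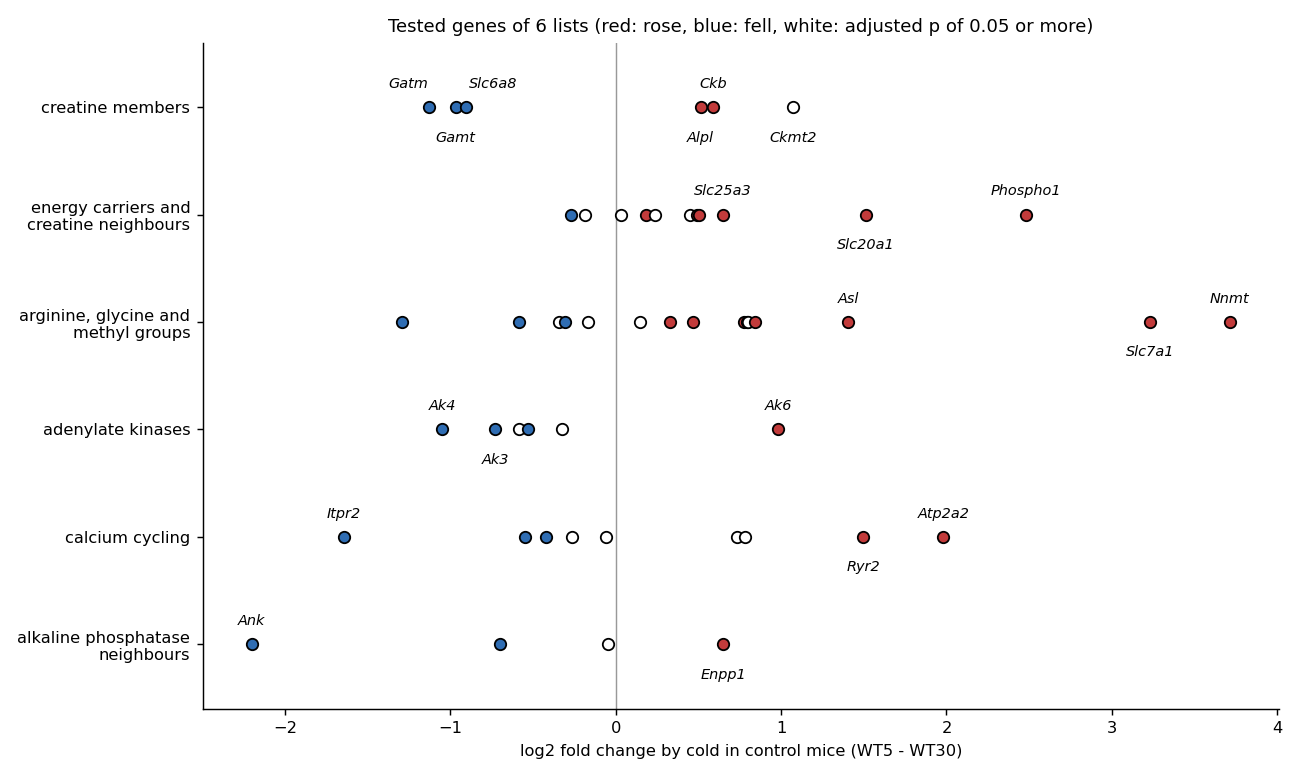
Log2 fold change by cold in control mice (x axis) of every tested gene in 6 lists (y axis), 1 point a gene, red where it rose, blue where it fell and white where the adjusted p was 0.05 or more. The named genes of the arginine and phosphate lists reach 3.71 and 2.48, beyond the members, which lie between -1.13 and 1.07.

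The genes whose pattern was most like that of each member were taken by Pearson r of log2 CPM among 14246 genes with a mean of at least 1 CPM. Over the 26 mice they were Neb, Myom2 and Eef1a2 for Ckmt2 (r 0.996 to 0.993), the first 2 being sarcomere genes. They were Snhg11, 6720489N17Rik and Mpv17l for Gatm (0.916 to 0.911), Atp13a2, Mxra8 and Snx29 for Gamt (0.960 to 0.952), and Rhobtb3, Klf16 and Mocos for Slc6a8 (0.931 to 0.919). They were Gm9899, Cnn1 (a smooth muscle marker) and Ubtf for Ckb (0.831 to 0.808), and Abi3, Mfn2 and Gm10603 for Alpl (0.919 to 0.875). These mice share the temperature step, so that r was also taken on deviations from the group means. The mice also fell in clusters of muscle RNA within groups, which both measures hold, and Neb and Casq1 belong to the 20 muscle genes. Neb, Eef1a2 and Casq1 then led for Ckmt2 (0.996 to 0.995), Fabp3, AW011738 and Amigo1 for Ckb (0.848 to 0.770), and Anxa11, Mfn2 and Abi3 for Alpl (0.804 to 0.792). Gpc3, Snhg11 and Prx led for Gatm (0.710 to 0.691), Snx29, Cbx2 and 4930525G20Rik for Gamt (0.733 to 0.707), and Tgfbr1 and Smad5 were among those for Slc6a8 (0.751 and 0.748). Among the members themselves, Gatm, Gamt and Slc6a8 had r of 0.769 to 0.818 with each other over the 26 mice, and -0.265 to 0.248 on the deviations. Mfn2 and Abi3 for Alpl, Snhg11 for Gatm, Snx29 for Gamt, and Neb and Eef1a2 for Ckmt2 appeared by both measures.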

How the data were processed

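BAT of 26 mice in 4 groups, taken from the sample labels, was sequenced by the authors as rRNA-depleted stranded total RNA with 100-bp single-end reads. Alignment by the authors used STAR 2.5.2b and mm10, and featureCounts 1.5.2 gave the gene totals on GENCODE M13. The deposited values are raw counts without normalization, and the strand setting is not given in the sources used here. Of 50686 gene IDs, 50376 had a symbol in GENCODE M21, which is on the same build and also gave coordinates and exon lengths. The authors' alignment was not repeated.

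Genes were kept with filterByExpr by group (17286). R 4.3.3 with edgeR 4.0.16 fitted 1 term for each of the 4 groups over all 26 mice with TMM factors, and edgeR's quasi-likelihood test (legacy mode, as in edgeR 3.22.0, the version named by the authors) was adjusted by Benjamini-Hochberg over all genes, with a threshold of 0.05. CPM used the TMM library sizes, and log2 CPM a prior count of 2. Intervals cover the spread between mice, or counting error where a floor of 3 counts is given. The fit was tested on simulated data. The 73 pairs of mice within groups all differed beyond sampling noise (chi-square per gene of at least 4.92). DESeq2 1.42.0, other scalings, other filters, the muscle score (mean log2 CPM of 20 genes) as covariate, and leaving out each mouse were alternatives. Correlations with muscle RNA within groups had been planned and are not given, as the mice formed separate clusters.

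The members and all lists were chosen with earlier results of these data known. Named genes are the members, Afdn, Ucp1, Ckm, up to 3 genes a pathway list with the largest change by cold in control mice among those called with a mean of at least 1 CPM, the most abundant or lowest markers, and the 3 genes most like each member by either measure. Des, Ly6g, Th, Slc7a2 and Ass1 were named after their values were seen. One gene of the phosphatase list is not analysed here. Some genes that the rule names are not reported here.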

Additional observations from a re-analysis of the deposited data

Results flagged for a closer look

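Of 24 sets of values examined (6 tested members in 4 groups), 3 had 1 mouse far from the others by Dixon's test, which chance does in about 1 of 20 groups. Ckmt2 was 70.5 CPM in KO5 mouse 25, against 28.1 CPM in the next mouse, and this was also the mouse with the most muscle RNA of all 26. Gatm was 0.975 CPM in WT5 mouse 17, from 14 counts, against 1.54 CPM in the next lowest. Alpl was 6.87 CPM in WT30 mouse 3, against 9.27 CPM in the next lowest. Leaving out any of these mice kept the cold call of Gatm and of Alpl in both genotypes, and that of Ckmt2 was absent with and without them.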

How the results depend on the processing

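The alternatives of scaling, filter, tool, samples and muscle RNA gave 789 values of single genes with the same direction and call, 32 reversed, 13 no longer called and 2 newly called, and leaving out 1 mouse gave 903, 23, 9 and 1. The cold falls of Gamt and Slc6a8 kept direction and call under each of them with more than 1 mouse in each arm, and so did that of Gatm except among mice labelled KO with little muscle RNA. Control mice with little muscle RNA include 1 cold mouse, so that their values are no test. Leaving out mitochondrially encoded genes, splitting the mice by muscle RNA and the term for that split were chosen after seeing the data. Of the members, 5 were called under cold in each genotype and 4 to 5 when a mouse was left out. The count was 4 with library size alone or without the mouse richest in muscle RNA of each group in both genotypes, 4 in mice labelled KO with upper-quartile factors or at least 10 counts, 6 (Ckmt2 added) among mice labelled KO with more muscle RNA and 2 among those with little, and 0 in the other comparisons under all. Calls over all genes ran from 3 to 51 in the warm between labels, from 2 to 162 in the cold, from 0 to 434 for the interaction, and from 6891 to 11855 for cold in control mice. With 1 mouse left out they ran from 7 (without WT30 mouse 2) to 93 (without WT30 mouse 7) in the warm, from 7 (without WT5 mouse 19) to 100 (without KO5 mouse 22) in the cold, and from 49 (without KO30 mouse 8) to 371 (without WT30 mouse 7) for the interaction. Among mice with little muscle RNA the log2 fold change reversed to -0.0088 and -0.042 for Ckb by cold, to -5.38 for Ckm by cold in control mice, to -0.079 for Alpl between labels in the cold and to -0.29 for its interaction. Among mice with more muscle RNA it reversed to -0.44 for Ckm by cold in control mice, to 0.18 for Ckb and 0.064 for Afdn between labels in the warm, and to -0.038 for Gamt in the cold. With the muscle score as covariate it was -0.080 for Ckm by cold in control mice, and for Ckmt2 0.0094 between labels in the warm and -0.0031 for the interaction. Without the mouse richest in muscle RNA of each group it was 0.56 for Ckmt2 and 0.0047 for Afdn in the warm, -0.011 for Slc6a8 in the cold, and 0.011 for Ckb and -0.093 for Ckmt2 for the interaction, and Ckb by cold was not called at 0.40 and 0.42. Library size alone gave 0.080 for Gatm, 0.0047 for Gamt and 0.15 for Afdn in the warm, -0.043 for Ckmt2, -0.046 for Gamt and -0.024 for Slc6a8 in the cold, and -0.050 for Gamt and -0.028 for Alpl for the interaction. Upper-quartile factors gave 0.021 for Afdn in the warm and -0.017 for Gamt in the cold, a filter of at least 10 counts 0.0020 and -0.0065, a fit of only the groups compared 0.0052 and -9.9e-06, and no filter 0.0039 for Afdn. The cause was not tested. Leaving out each mouse in turn gave ranges that crossed 0 for uncalled values: for Ckmt2 -0.16 to 2.22 by cold in control mice (negative without WT5 mouse 16), -0.63 to 0.84 between labels in the warm, -0.80 to 1.42 in the cold and -0.66 to 1.77 for the interaction, for Ckm -0.49 to 2.16 by cold in control mice, for Afdn -0.048 to 0.056 in the warm, and in the cold -0.091 to 0.055 for Gamt and -0.024 to 0.10 for Slc6a8. No paired analysis was possible because each mouse has a number of its own that no other group shares. Depth limits Ckmt1, with 0 to 2 counts a mouse, and Ckmt2, with 1 to 10 counts in 10 mice.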
